A study of Mus musculus with 7 samples.

Results

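The integrin and laminin genes were compared between fibroblasts, cortical neural stem cells and lines of induced neural stem cells. Members were the gene symbols Itga or Itgb with a number or letter suffix (Itga1 to Itgax, Itgb1 to Itgb8) and Lama, Lamb or Lamc with a number. They came to 37 of the 24354 genes in the table: 18 integrin alpha chains, 8 integrin beta chains, 5 laminin alpha chains, 3 laminin beta chains and 3 laminin gamma chains. Itga2b was counted as a member. Itgb2l, Itgb1bp1, Itgb3bp and Itgbl1 were not.

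RNA sequencing gave 1 value per gene in 7 mouse libraries, each made from the pooled RNA of 2 to 3 biological replicates. The mouse embryonic fibroblasts (MEF) came from embryos at day 13.5 of the genotype Oct4-CreER x Rosa26-loxSTOPlox-EYFP, on a C57BL/6-Pou5f1 x 129X1/SvJ background, with the head, internal organs and spinal cord removed. The control neural stem cells (cNSC) came from the cerebral cortex at day 13.5 of OG2/ROSA26 embryos, so strain and genotype differed from the other libraries. The 5 libraries of induced neural stem cells (iNSC) comprised DTA, pBKSM, pOKSM and clones 1 and 3 of mcBKSM, all obtained by infecting day 13.5 fibroblasts with lentivirus or retrovirus and growing them in neural stem cell medium. All but DTA shared the genotype and strain of the MEFs. The DTA fibroblasts were Oct4-CreER x Rosa26-loxSTOPlox-DTA, in which Cre switches on a diphtheria toxin gene, and their strain is labelled Unknown. In the names, p and mc are read as polycistronic and monocistronic vectors, and the letters as Oct4 (O), Brn4 (B, gene Pou3f4), Klf4 (K), Sox2 (S) and Myc (M). Pou3f4 was listed at 0 in both mcBKSM clones and was 19.99 FPKM in pBKSM and 24.1 in DTA, and was 2.26 FPKM in pOKSM. Pou5f1 was 0.202 FPKM in pOKSM, 0.398 in clone 1 and 0.187 in clone 3, and was listed at 0 elsewhere. Neither gene followed the letters O and B, so the factors in the labels could not be checked here. The labels are used as names only. The iNSC lines were lines or clones, each sequenced once.

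Integrins are cell surface receptors made of 1 alpha and 1 beta chain. They bind matrix proteins outside the cell and connect to actin inside it through adaptors such as talin and kindlin. Laminins are large secreted proteins in which an alpha, a beta and a gamma chain are wound together, and they form the sheet of the basement membrane that integrins containing alpha3, alpha6 or alpha7 grip. In the developing cortex, radial glia, which are the neural stem cells, hold on to a laminin-rich basement membrane at the surface of the brain with integrins that contain the beta1 chain. Fibroblasts mainly bind fibronectin, through alpha5 with beta1 and through alphav integrins.

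Stretches upstream of the start sites of 4 members are shown: Lama5 and Itga3 because they were called between cell types, Itga4 because it was called between lines, and Itgb1 because it was the highest member everywhere. These 4 genes and the motifs searched were chosen after the values were seen. They were read from RefSeq (GRCm38.p6, the assembly called mm10), in which 23 of the 37 members had an entry, and are written 5′ to 3′ on the gene's strand, without bases annotated as transcribed. Capitals mark matches on either strand to CACGTG (bound by Myc), ATGCAAAT (the POU octamer), CTTTGT (the Sox core), GGGTGTGG (a Klf element) and GGGCGG (a GC box). No 2 of these motifs overlapped in the stretches shown.
Lama5 (chr2:180225905-180226109, minus strand): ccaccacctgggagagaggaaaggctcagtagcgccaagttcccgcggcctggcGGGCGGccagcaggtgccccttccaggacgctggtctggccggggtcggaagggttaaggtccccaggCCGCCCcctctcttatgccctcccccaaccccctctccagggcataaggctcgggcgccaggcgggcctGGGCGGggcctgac
Itga3 (chr11:95076845-95076964, minus strand): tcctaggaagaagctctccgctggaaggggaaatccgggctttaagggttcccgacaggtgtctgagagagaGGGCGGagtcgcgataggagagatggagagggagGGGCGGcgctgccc
Itga4 (chr2:79255176-79255425, plus strand): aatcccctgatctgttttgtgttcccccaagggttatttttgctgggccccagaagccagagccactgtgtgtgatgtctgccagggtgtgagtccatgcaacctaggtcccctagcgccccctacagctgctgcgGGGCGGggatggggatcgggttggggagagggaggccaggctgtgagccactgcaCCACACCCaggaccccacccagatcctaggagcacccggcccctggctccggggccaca
Itgb1 (chr8:128685404-128685653, plus strand): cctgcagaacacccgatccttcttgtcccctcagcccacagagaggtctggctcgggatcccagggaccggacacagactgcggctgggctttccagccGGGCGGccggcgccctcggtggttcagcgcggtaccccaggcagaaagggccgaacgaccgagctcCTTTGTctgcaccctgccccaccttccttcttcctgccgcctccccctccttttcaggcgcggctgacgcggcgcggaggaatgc
The Lama5 stretch held 3 GC boxes in 205 bases, after 45 bases next to its listed start were left off as transcribed. Of 32851 promoters, 25.6% held at least 1 in the 205 of 250 bases farthest from their own listed start. Itga3 held 2 in 120 bases, with 130 left off, against 12.8% of promoters with at least 1 in the matching bases. Both stretches adjoin the outermost annotated start of their gene, so these shares are not matched for distance to it. Itga4 held 1 GC box and 1 Klf match in 250 bases, against 32.7% and 3.2% of promoters. Itgb1 held 1 GC box and 1 Sox match in 250 bases, against 32.7% and 16.5%. CpG dinucleotides numbered 13 in Lama5, 8 in Itga3, 6 in Itga4 and 21 in Itgb1. These matches describe the letters only and were not related to binding.

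Levels are given as FPKM, a fragment count corrected for transcript length and library size, so they can be set side by side between genes. The spacing of low values put the depth at about 10800000 to 15800000 fragments per library, and 3 fragments on a transcript of 5.22 kb, the median member, correspond to 0.0363 (DTA) to 0.0531 FPKM (pBKSM). Values near that floor are counting noise. Between 10907 and 11429 genes reached 1 FPKM. Of the 7 neural stem cell markers, Fabp7, Sox2, Pax6 and Olig2 were listed at 0 in MEF and were at least 5.33 FPKM in each other library. Nes was 0.103 FPKM in MEF and Slc1a3 9.8, both below all other libraries, while Vim was 2239 FPKM in MEF, inside the range of the others (1669 to 4206). Of the fibroblast markers, Col1a1 was 440 FPKM in MEF and at most 0.962 in any other library, while Lum was listed at 0 in MEF. In bulk RNA, fewer cells of a type and less RNA per cell cannot be told apart.

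Of the 37 members, 17 reached 5 FPKM in at least 1 library, 6 peaked between 1 and 5 FPKM, and 14 stayed under 1 FPKM in every library. Itgad and Itgb6 were listed at 0 throughout. The members under 1 FPKM were otherwise Itga2 (highest 0.271 FPKM), Itga11 (0.371), Itgae (0.238), Itgal (0.266), Itgam (0.325), Itgax (0.571), Itgb3 (0.948), Itgb4 (0.489), Lama2 (0.0383), Lama3 (0.0599), Lamb3 (0.805) and Lamc3 (0.149). Of the 6 intermediate members, those given here are Itga1 (0.47 to 4.15 FPKM), Itga10 (0.23 to 1.32), Itga2b (0.718 to 2.52), Itgb2 (0 to 3.54) and Lama1 (0.00654 to 4.85). Lama3 and Lamb3, laminin chains of epithelia, and the epithelial integrin chain Itgb4 were thus low in all 7 libraries. Only 9 members were at 1 FPKM or more in every library.

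**Figure D1:**
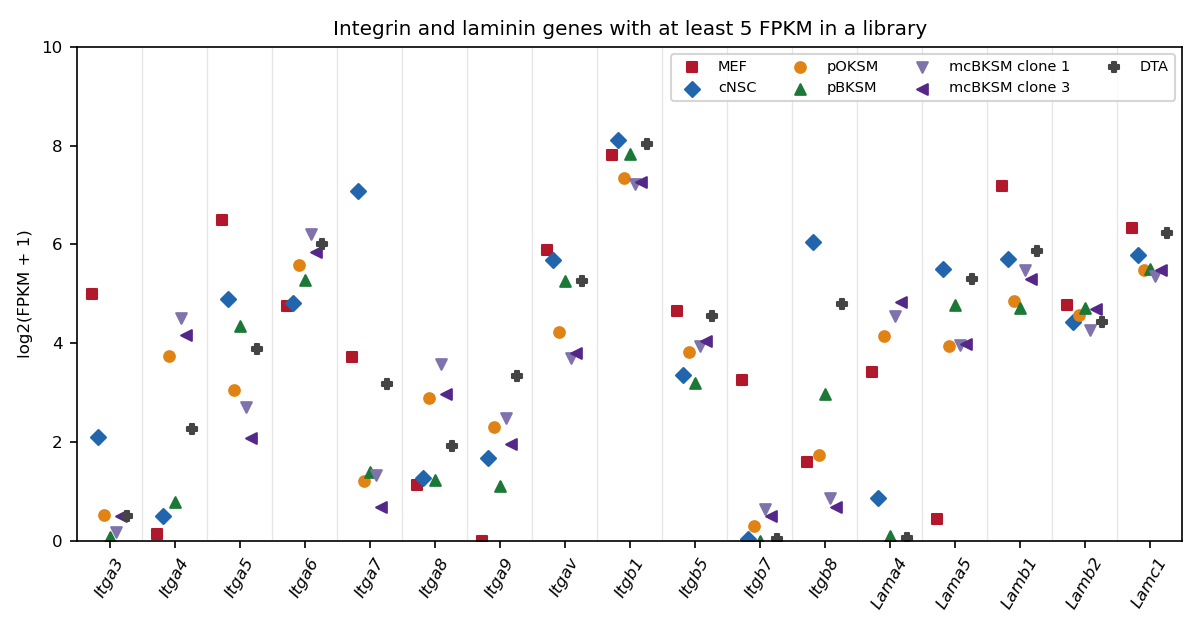
Level of the 17 integrin and laminin genes with at least 5 FPKM in a library, as log2(FPKM + 1) on the vertical axis, with 1 symbol per library. Itgb1, Lamb2 and Lamc1 lie close together in all libraries, while Itga4, Itga7, Itgb8, Lama4 and Lama5 spread over several log2 units.

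Among the beta chains, Itgb1, the partner of most alpha chains, was the highest member in every library. It was 225 FPKM in MEF, 275 in cNSC, 162 in pOKSM, 228 in pBKSM, 148 and 152 in mcBKSM clones 1 and 3, and 261 in DTA. Its share of the summed beta chain FPKM ran from 78.5% in cNSC to 93.8% in pBKSM. Itgb1 lies on chromosome 8 (128685654 to 128733579, mm10).

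Itgb8, which pairs with alphav only and releases active TGF-beta from its latent form, spread over the widest range of the beta chains on the log2(FPKM + 1) scale. It was 64.8 FPKM in cNSC and 26.6 in DTA, then 6.82 in pBKSM, 2.34 in pOKSM, 2.01 in MEF, 0.825 in clone 1 and 0.605 in clone 3. Its share of beta chain FPKM was 18.5% in cNSC and 8.55% in DTA. Itgb5, a vitronectin receptor chain that also pairs with alphav, was 24.1 FPKM in MEF, 9.3 in cNSC, 13.05 in pOKSM, 8.13 in pBKSM, 14.4 and 15.5 in the clones and 22.4 in DTA. The other alphav partners Itgb3 and Itgb6 were under 1 FPKM.

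Itgb7, known from lymphocyte integrins, was 8.57 FPKM in MEF and listed at 0 in pBKSM, and was 0.0244 in cNSC, 0.222 in pOKSM, 0.562 and 0.413 in the clones and 0.0233 in DTA. Itgb2, the shared beta chain of leukocyte integrins, was 3.54 FPKM in MEF, 0.771 in cNSC, 0.0295 in pOKSM and 0.26 in DTA, and was listed at 0 in the other 3 libraries. MEF had the highest value of both, and also of Itgal, Itgam and Itgax. Of 8 leukocyte markers, all were detected in MEF, at 0.348 (Aif1) to 1.76 FPKM (Cd68), and 3 reached 1 FPKM. Ptprc (0.387 FPKM), Csf1r (0.61), Aif1, Laptm5 (0.549) and Cd48 (0.441) were highest in MEF of all 7 libraries, and Tyrobp was 1.55 in MEF, 1.78 in DTA and 0 elsewhere. The summed level of the 8 was 7.21 FPKM in MEF and 3.46 to 19.9 in the other libraries, where Cd68 and Coro1a made up most of it in pOKSM and the clones. The part of such cells in the Itgb2 and Itgb7 values was not tested.

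The alpha chains differed more in kind between cell types. In MEF the leading alpha chain was Itga5, the fibronectin receptor chain, with 39.9% of the summed alpha chain FPKM. In cNSC it was Itga7, a laminin receptor chain best known from muscle, with 52.8%. In all 5 iNSC libraries it was Itga6, a laminin receptor chain used to mark neural stem cells, with 36.8% (pBKSM) to 55.1% (clone 1). The sum over all alpha chains was 224 FPKM in MEF and 255 in cNSC, and 100.2 to 145 FPKM in the iNSC libraries.

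Among the laminin-binding chains, Itga6 was 25.8 FPKM in MEF, 26.9 in cNSC, 47.2 in pOKSM, 37.6 in pBKSM, 73.1 and 56.9 in the clones and 63.4 in DTA, so that each iNSC library lay above both reference libraries. Itga7 was 134 FPKM in cNSC, 12.2 in MEF, 7.97 in DTA, and 1.32, 1.63, 1.51 and 0.613 in pOKSM, pBKSM and clones 1 and 3. Beside Itga7 in cNSC stood the smooth muscle and pericyte markers Acta2, at 47.5 FPKM, and Cspg4, at 5.15, both above every iNSC library. Rgs5 (0.559 FPKM) and Kcnj8 (0.242) were highest in cNSC of all 7 libraries, and Pdgfrb and Myh11 were 0.0233 and 0.038 there. Of these 6 markers, 2 reached 1 FPKM in cNSC, and their summed level was 53.5 FPKM in cNSC against 134 in MEF and 0.385 to 2.46 in the iNSC libraries. Their part in the Itga7 value was not tested. Itga3 was 30.8 FPKM in MEF, 3.28 in cNSC and 0.0578 (pBKSM) to 0.438 (pOKSM) in the iNSC libraries.

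Of the chains that bind RGD-type ligands such as fibronectin, Itga5 was 89.4 FPKM in MEF, 28.8 in cNSC, 19.2 in pBKSM, 13.8 in DTA, 7.23 in pOKSM and 5.54 and 3.23 in the clones. Itgav followed a similar order, at 58.2 FPKM in MEF, 50.4 in cNSC, 37.5 in DTA, 37.3 in pBKSM, 17.7 in pOKSM and 12.04 and 12.9 in the clones. Itga8, a receptor chain for nephronectin, went the other way, with 11.02 and 6.83 FPKM in the clones, 6.37 in pOKSM, 2.76 in DTA, 1.33 in pBKSM, 1.4 in cNSC and 1.18 in MEF. Both reference libraries and pBKSM thus had the lowest Itga8.

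The 2 related chains Itga4 and Itga9, whose integrins bind VCAM1, fibronectin and tenascin-C, were low in the reference libraries. Itga4 was 21.7 and 17.02 FPKM in the clones, 12.3 in pOKSM, 3.79 in DTA, 0.721 in pBKSM, 0.416 in cNSC and 0.0949 in MEF. Itga9 was 9.11 FPKM in DTA, 4.56 and 2.9 in the clones, 3.92 in pOKSM, 2.2 in cNSC and 1.15 in pBKSM, and was listed at 0 in MEF. For both chains every iNSC library exceeded MEF.

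Among the laminins, the alpha chain was the part that changed identity. Lama4, an alpha chain typical of mesenchyme and vessels, made up 95.8% of laminin alpha chain FPKM in MEF. Lama5, the alpha chain of most adult basement membranes, made up 97.4% in cNSC, 97.4% in DTA and 99.003% in pBKSM. In pOKSM and both clones the 2 chains were present together, Lama4 at 49.4%, 53.7% and 61.4% and Lama5 at 42.7%, 34.7% and 33.1%.

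The values behind these shares were as follows. Lama5 was 0.354 FPKM in MEF, 44.2 in cNSC, 14.4 in pOKSM, 26.3 in pBKSM, 14.5 and 14.9 in the clones and 38.4 in DTA. Lama4 was 9.69 FPKM in MEF, 0.83 in cNSC, 16.7 in pOKSM, 22.5 and 27.6 in the clones, and 0.0732 in pBKSM and 0.0397 in DTA, the last 2 close to the floor. Lama4 and Lama5 therefore split the iNSC libraries into the same sets: those with Lama4 above MEF had the 3 lowest Lama5 levels. Lama1, the alpha chain of the first embryonic laminin, was 4.85 and 2.45 FPKM in the clones and 2.61 in pOKSM, and under 1 FPKM elsewhere.

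The partner chains varied less. Lamb1 was 144 FPKM in MEF, 51.3 in cNSC, 27.8 in pOKSM, 25.3 in pBKSM, 43.7 and 38.3 in the clones and 57.6 in DTA. Lamb2 stayed between 18.1 FPKM (clone 1) and 26.1 FPKM (MEF), a span of 1.44-fold. Lamc1, the gamma chain of most laminins, was 79.2 FPKM in MEF, 54.5 in cNSC, 73.7 in DTA and 39.9 to 44.3 in the other 4 lines.

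**Figure D2:**
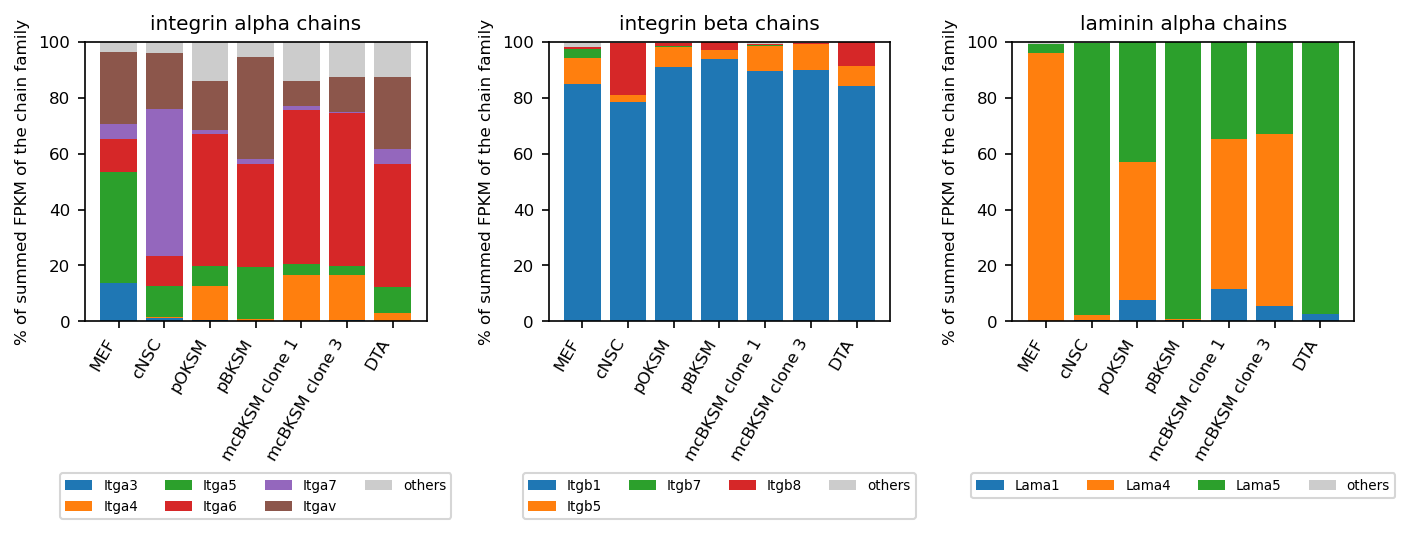
Share of the summed FPKM of integrin alpha, integrin beta and laminin alpha chains (vertical axis, percent) taken by each named gene in each of the 7 libraries. Itga5 leads in MEF, Itga7 in cNSC and Itga6 in the 5 iNSC libraries, and Lama4 (95.8%) in MEF gives way to Lama5 in cNSC (97.4%), pBKSM and DTA.

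To place the lines relative to the 2 reference libraries, cNSC was first set against MEF, 1 library a side and without a test. Of 20 members with at least 1 FPKM in either, 4 were 2-fold or more higher in cNSC and 7 lower, where 31.8% of 12219 genes differed by that much (16.3% higher and 15.5% lower). The 4 were Lama5, Itgb8, Itga7 and Itga9, with differences of 5.06, 4.45, 3.36 and 1.68 in log2(FPKM + 1). The 7 were Itgb7 (-3.22), Itga3 (-2.89), Lama4 (-2.55), Itga5 (-1.60), Lamb1 (-1.47), Itgb2 (-1.36) and Itgb5 (-1.28). Of these 11 members, 9 lay nearer cNSC than MEF in pBKSM and in DTA, 8 in pOKSM and in clone 1, and 7 in clone 3. Over all 3891 genes that far apart, 63.5% (clone 1) to 82.2% (DTA) lay nearer cNSC. Of the 11, 7 lay beyond cNSC in pBKSM, 6 in DTA and 5 in each other line, against 28.3% (clone 1) to 41.2% (pBKSM) of the 3891 genes. The counts for pBKSM and DTA include Itgb7, at 0 and 0.0233 FPKM against 0.0244 in cNSC, where all values lie under the floor. Every line's count includes Itga3 and Itgb2, both under 1 FPKM in all 5 lines. In pBKSM all 7 were members lower in cNSC than in MEF. Itgb2 and Itgb7 reached 1 FPKM in MEF only and are in the set through it. These counts are therefore no support for a direction. Itga7 lay below its MEF level in all 5 lines, and Itgb8 did in both clones. Lama4 lay above its MEF level in pOKSM and both clones.

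Against MEF, the iNSC libraries had more Lama5 and less Itga3, Itgb7, Itgb2 and Lamb1. By limma, 6 of the 23 members tested were called (1 higher and 5 lower), where 16.3% of 13042 genes were called (6.77% higher and 9.55% lower). The other 14 members did not reach 1 FPKM. Itga3, Itgb2 and Itgb7 were under 1 FPKM in every iNSC library, so they entered the test through the reference libraries and their count is no support for a direction. Lama5 was under 1 FPKM in MEF and entered through the other libraries. The median difference of the 23 was -0.68 in log2(FPKM + 1), and 0.03 over all genes tested. Itga3, Itgb2 and Itgb7 are among the 23, so this median is no support for a direction either. The spread came from the 5 iNSC libraries, with the lone MEF and cNSC libraries assumed to vary alike.

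Lama5 (mm10 chromosome 2, from 180176373 to 180225904) averaged 21.7 ± 10.6 FPKM over the lines (SD, n = 5), higher than MEF in 5 of 5 libraries, with a difference of 3.96 ± 0.59 in log2(FPKM + 1) (SE, limma adjusted p = 0.00998). Itga3 (chromosome 11, 95044475 to 95076844) was 0.287 ± 0.182 FPKM and lower in all 5, with a difference of -4.64 ± 0.25 (adjusted p = 0.000214). Itgb7 was 0.244 ± 0.244 FPKM (difference -2.97 ± 0.29, adjusted p = 0.00208). Itgb2 was 0.0579 ± 0.114 FPKM (-2.11 ± 0.17, adjusted p = 0.0011). All 5 lines lay below MEF for both chains.

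Lamb1 (chromosome 12, 31265146 to 31329644) was 38.6 ± 13.1 FPKM and lower than MEF in all 5 libraries, with a difference of -1.94 ± 0.45 (adjusted p = 0.0406). This call ended when pOKSM (adjusted p = 0.088), pBKSM (0.0512), clone 1 (0.0764) or clone 3 (0.0861) was left out, without a filter (0.0514) and after quantile normalization (0.0616).

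Several members with large differences did not pass. Itga5 was 9.82 ± 6.58 FPKM in the lines, below MEF in 5 of 5 (difference -3.29 ± 0.85, adjusted p = 0.0552), and passed when pBKSM was left out (adjusted p = 0.0377). Itga7 did not pass either (-2.17 ± 0.89, adjusted p = 0.163). Without DTA, Itga7 (adjusted p = 0.0119) and Lamc1 (0.00983) were called lower. Itga4 (2.96 ± 1.45, adjusted p = 0.224), Itga9 (2.24 ± 0.77, 0.111) and Itga6 (1.05 ± 0.36, 0.109) were above MEF in each line, and Itga9 passed with a pseudocount of 0.1 (0.0243). Itgb1 gave -0.28 ± 0.37 and an adjusted p of 0.633. For Lama4, the lines lay on both sides of MEF (-0.68 ± 2.27, adjusted p = 0.858).

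Against cNSC, Itga3 was the only member called. It was under 1 FPKM in every iNSC library and entered the fit through MEF and cNSC, so its direction is no support either. By limma 1 of 23 was called, lower, where 1.17% of 13042 genes were called (0.958% lower). Itga3 was 3.28 FPKM in cNSC against 0.287 ± 0.182 in the lines (SD, n = 5), a difference of -1.74 ± 0.25 in log2(FPKM + 1) (SE, adjusted p = 0.0472). The call ended with any of pOKSM, pBKSM, clone 1 or clone 3 left out (adjusted p = 0.172, 0.0713, 0.145 and 0.151), and with a pseudocount of 0.1 (0.221), a filter of 5 FPKM (0.0719), no trend (0.0501) or only the 2 classes compared (0.0873). Strain cannot be told apart from cell origin here.

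The largest differences from cNSC were in Itga7 and Itgb8. Itga7 stood at 134 FPKM in cNSC and averaged 2.61 ± 3.02 over the lines, lower in 5 of 5, without passing (difference -5.52 ± 0.89, limma adjusted p = 0.0707). It passed without DTA (adjusted p = 0.00602). Itgb8 stood at 64.8 FPKM in cNSC and averaged 7.44 ± 11 over the lines, also lower in 5 of 5 (-3.83 ± 1.59, adjusted p = 0.384). Itgb2 passed without DTA (adjusted p = 0.0161), at 0.771 FPKM in cNSC against a value of 0.0295 or less in the 4 other lines. Lamb2, Lamc1 and Lamb1 gave 0.11 ± 0.22, -0.19 ± 0.34 and -0.47 ± 0.45. The class comparisons share the iNSC libraries, so their values are given side by side only.

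**Figure D3:**
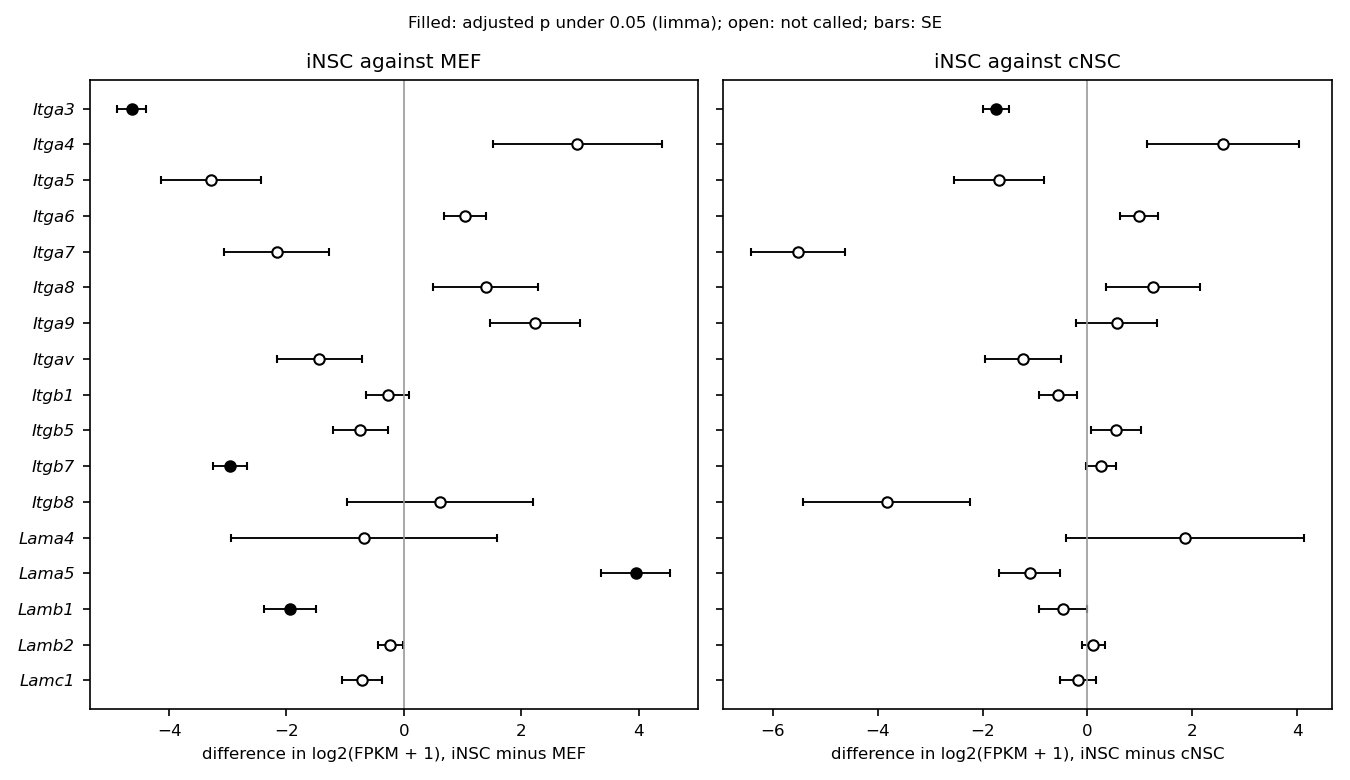
Difference in log2(FPKM + 1), iNSC minus MEF (left) and iNSC minus cNSC (right), for the 17 members with at least 5 FPKM in a library, with bars for the SE and filled points for an adjusted p under 0.05. On the left Lama5 is called higher and Itga3, Itgb7 and Lamb1 lower; on the right only Itga3 is called.

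By label, pBKSM and the 2 mcBKSM clones share factors and differ in vector type. Pou3f4, however, was 19.99 FPKM in pBKSM and listed at 0 in both clones. The part of either in the member values was not tested. In pBKSM, Lama4 and Itga4 were lower and Itgav was higher than in the clones. By limma 3 of 23 members were called, 1 higher and 2 lower, where 5.82% of 13042 genes were called (3.74% higher and 2.08% lower). Lama4 (chromosome 10, 38965515 to 39110188) was 0.0732 FPKM in pBKSM against 22.5 and 27.6, a difference of -4.59 ± 0.21 in log2(FPKM + 1) (SE, adjusted p = 0.0392). Itga4 (chromosome 2, 79255426 to 79333114) was 0.721 FPKM against 21.7 and 17.02 (-3.56 ± 0.23, adjusted p = 0.0471). Itgav was 37.3 FPKM against 12.04 and 12.9 (1.51 ± 0.10, adjusted p = 0.0477). Lama4 and Itga4 were under 1 FPKM in pBKSM and entered through other libraries. The 2 clones gave the only residual degree of freedom. The SE therefore rests on how far 2 clones lay apart, drawn by limma toward a trend over all genes. The smallest adjusted p over all genes was 0.0367, so every call lay near the threshold. All 3 member calls ended without a filter (adjusted p = 0.0622 for Lama4, 0.0774 for Itga4 and 0.0636 for Itgav) and without a trend in the variance (0.0595, 0.0609 and 0.0609). Those of Itga4 and Itgav also ended with a pseudocount of 0.1 (0.0512 and 0.0504), and that of Itgav after quantile normalization (0.0509). On simulated data the fit recovered none of the changed genes when each gene varied as its own residual did, and recovered most when the variances were moderated, so these calls depend on the spread assumed.

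Itgb8 came next, at 6.82 FPKM in pBKSM against 0.825 and 0.605, without passing (2.19 ± 0.17, limma adjusted p = 0.0523). Lama1 (0.147 FPKM against 4.85 and 2.45, adjusted p = 0.114), Itga8 (1.33 against 11.02 and 6.83, 0.0943) and Itga5 (19.2 against 5.54 and 3.23, 0.1003) did not pass either. At an unadjusted p under 0.05, 14 of 23 members passed, where 37.4% of all genes did. Without the trend, 0 genes were called over the whole table by limma. The fit of the 3 BKSM libraries alone called 9 of 19 members (5 higher and 4 lower), where it called 21.1% of all genes against 5.82% in the main analysis, among them Itga5, Itga8, Itgb1, Itgb5, Itgb8 and Lama5.

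The clones themselves were close: 0 of 17 members were 2-fold or more apart in log2(FPKM + 1) between clone 1 and clone 3, where 1.71% of 11496 genes were (1.25% higher and 0.461% lower in clone 1). Their largest member difference was Lama1, at 0.76. The neuron marker Rbfox3 moved with the lines that had Lama4, Itga4 and Itga8, at 29.7 and 25.97 FPKM in clones 1 and 3 and 19.9 in pOKSM, while pBKSM had 1.62 and DTA 0.497. Of the 4 neuron markers, Dcx also separated these lines, at 2.41, 2.4 and 3.26 FPKM against 0.0879 and 0.146. Stmn2 did too, at 1.61, 2.21 and 2.6 FPKM against 0 and 0.0337. Tubb3 also did, by less, at 14.6, 12.8 and 19.4 FPKM against 6.05 and 10.5. The 4 summed to 38.5 to 51.3 FPKM in pOKSM and the clones and to 7.76 and 11.2 in pBKSM and DTA. Of the 7 fibroblast markers, Pdgfra also did so, at 6.995, 8.07 and 8.12 FPKM against 1.06 and 0.902, while the others were under 1 FPKM in every line. Their part in the member values was not tested.

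Against pOKSM, pBKSM also had lower Lama4 and Itga4 and higher Itgav, in 1 library a side and without a test. Of 18 members, 3 were 2-fold or more higher in pBKSM and 5 lower, where 12.8% of 11762 genes differed by that much (6.32% higher and 6.44% lower). Higher were Itga5 (difference 1.30 in log2(FPKM + 1)), Itgb8 (1.23) and Itgav (1.04). Lower were Lama4 (-4.04), Itga4 (-2.95), Itga8 (-1.66), Lama1 (-1.65) and Itga9 (-1.19). This comparison shares the pBKSM library with the previous one, so the 2 sets are not independent.

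Among the members highest in DTA of the iNSC libraries were Itga1, Itga7, Itga9, Itgb1, Itgb5, Itgb8, Lama5, Lamb1 and Lamc1. Itgav was nearly level with pBKSM, at 37.5 against 37.3 FPKM. Itgb2, Itgal, Itgam and Itgax were also highest in DTA of the lines, all under 1 FPKM. Among the members lowest there were Lama4 (0.0397 FPKM), Itga2 (0.0144) and Itgae (0.0637). How many of all genes were highest in DTA was not counted, so these lists show no trait of the members. Against the other 4 lines limma called 0 of 19 members, where 0.355% of 12378 genes were called (0.202% higher and 0.153% lower), and 5 members had an unadjusted p under 0.05, where 20.5% of all genes did. Itgb8 was 26.6 FPKM in DTA against 0.605 to 6.82 in the others (difference 3.22 ± 0.93, SE, adjusted p = 0.169). Itga7 was 7.97 FPKM against 0.613 to 1.63 (2.01 ± 0.35, adjusted p = 0.085). Lamc1 was 73.7 FPKM against 39.9 to 44.3 (0.77 ± 0.13, adjusted p = 0.0865). All 3 lay above each of the other lines. The DTA fibroblasts also differed in genotype, which cannot be told apart from the line. Low Lama4 was shared with pBKSM, at 0.0732 FPKM there and 0.0397 in DTA. Lama4 entered the fit only through pOKSM and the clones, so its direction and its place in the counts are no support, also with pBKSM left out. Leaving out pBKSM gave 11 called members, 9 higher and 2 lower in DTA, where 32.3% of all genes were called, with Lama4 (-4.46, adjusted p = 0.00879), Lama5 (1.34, 0.0102), Itgb8 (3.69, 0.014) and Itgb1 (0.76, 0.0161) among them.

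**Figure D4:**
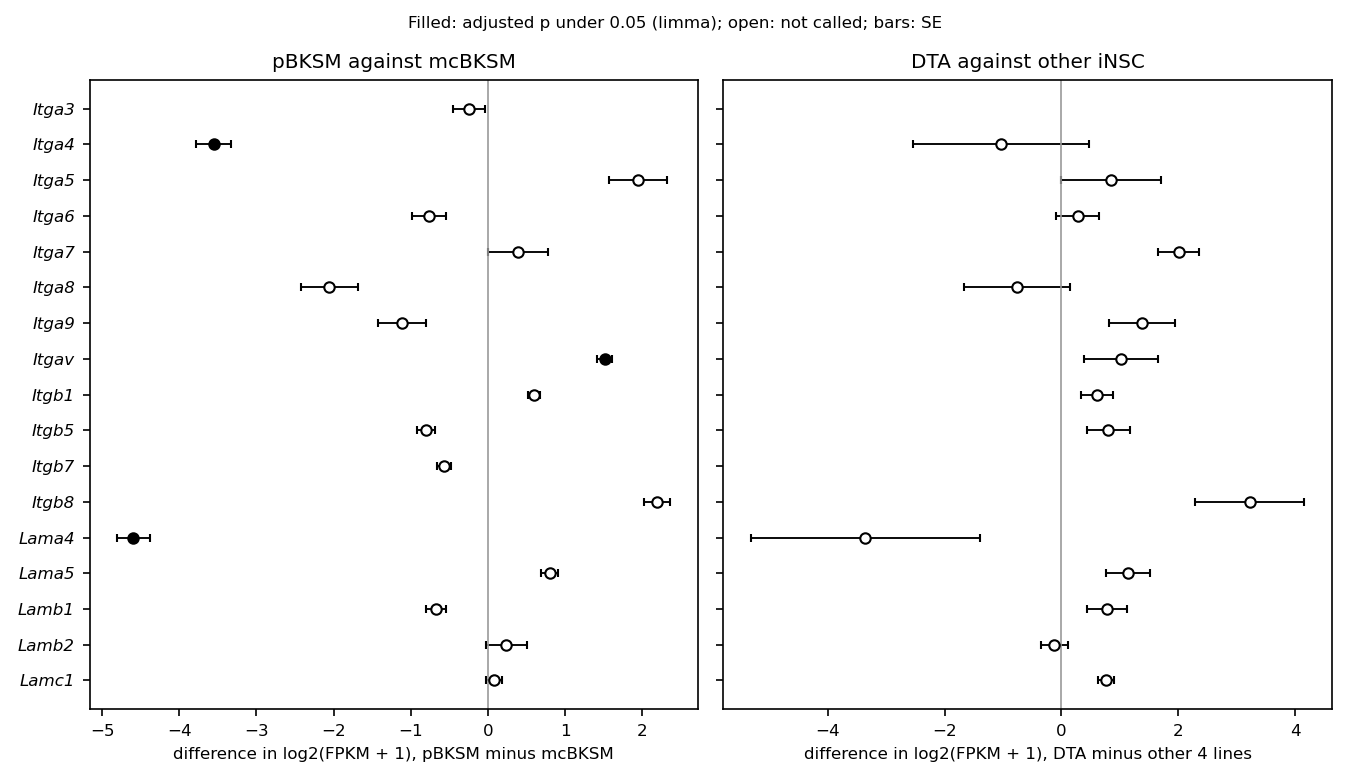
Difference in log2(FPKM + 1) for pBKSM minus the 2 mcBKSM clones (left) and for DTA minus the other 4 iNSC lines (right), over the members with at least 5 FPKM in a library that were tested, with bars for the SE and filled points for an adjusted p under 0.05. Lama4, Itga4 and Itgav are called on the left, and no member on the right.

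Genes that act beside integrins and laminins were counted from lists of partners. Of 13 tested basement membrane genes, 3 were called higher and 2 lower in iNSC than in MEF (limma, adjusted p under 0.05), with a list median of -0.90 in log2(FPKM + 1). The shares over all genes, for this and the following lists, were 6.77% higher and 9.55% lower against MEF, 0.958% lower against cNSC, 3.74% higher and 2.08% lower in pBKSM, and 0.153% lower in DTA. Genes under 1 FPKM throughout 1 side entered through the libraries where they were high, and their direction is no support: Fras1, Frem2, Postn, Nov, Sgce and Sgcd against MEF, Col4a6 against cNSC and Bcam in pBKSM. List medians that hold such genes are no support for a direction either, and the median over all genes tested against MEF was 0.03. Agrin (Agrn), a basement membrane proteoglycan with a laminin-binding domain, rose from 22.8 FPKM in MEF to 85.04 ± 6.11 in the lines (SD, n = 5). Nid1, which ties laminin to collagen IV, fell from 283 FPKM to 8.83 ± 7.25, and the proteoglycan gene Hspg2 from 53.4 to 11.4 ± 2.37. Fras1 rose from 0.0234 to 2.73 ± 0.511 FPKM. Against cNSC, 0 were higher and 2 lower: Col4a6 (31.9 FPKM in cNSC, 0.344 ± 0.216 in the lines) and Col18a1 (29.3, 1.18 ± 0.369). In DTA, 1 of 12 was lower than in the other lines, Col4a1 at 9.37 FPKM against 45.4 ± 5.59 (SD, n = 4).

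Of 15 tested integrin ligands other than laminins, 6 fell and 0 rose against MEF, with a list median of -2.47. Among them, fibronectin (Fn1), the ligand of alpha5 with beta1, fell from 516 FPKM to 13.8 ± 16.4, and osteopontin (Spp1), a ligand of alphav integrins, from 407 to 5.34 ± 2.74 (SD, n = 5). Thbs1 fell from 21.4 to 0.824 ± 0.347 FPKM and Ctgf from 33.1 to 2.38 ± 1.79. In pBKSM against the clones 2 of 15 were called higher and 2 lower. Vcam1, a ligand of alpha4 with beta1, was 4.19 FPKM in pBKSM against 25.3 and 23.9, and Fbn1 was 2.95 against 22.4 and 21.9. Mfge8, an alphav ligand, was 233 FPKM against 28.7 and 32.1, and Cyr61 was 37.6 against 12.7 and 13.6.

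Inside the cell, 6 of 20 tested integrin tail adaptors and adhesion proteins fell against MEF and 0 rose, with a list median of -1.08. Talin 1 (Tln1), which links beta tails to actin, fell from 107 FPKM to 28.8 ± 3.89, and the scaffold Bcar1 from 58.8 to 16.3 ± 1.47 (SD, n = 5). The filamin gene Flna fell from 204 to 63.8 ± 18.1 FPKM and Actn4 from 219 to 72.5 ± 6.27. In pBKSM against the clones 1 of 20 was called, Actn1, lower at 11.1 FPKM against 37.96 and 39.3. Of 8 tested genes of other laminin receptors and the dystroglycan complex that accompanies them, 1 was called higher and 1 lower than in MEF. Sgce, a sarcoglycan, was listed at 0 in MEF and was 35.05 ± 6.23 FPKM in the lines. Sgcd, another sarcoglycan, fell from 27.8 to 0.0893 ± 0.087 FPKM. Dmd was also listed at 0 in MEF, and whether a listed 0 means no transcript was not tested. Bcam, a receptor for laminins that contain the alpha5 chain, was higher in pBKSM than in the clones, at 9.2 FPKM against 0.36 and 0.297 (difference 2.94 ± 0.09, adjusted p = 0.0367). Dag1, the dystroglycan gene, was 103 FPKM in cNSC, 112 in DTA, 104 in pBKSM, 51.9 in pOKSM, 45.2 in MEF and 24.5 and 30.8 in the clones, and was called in none of the 4 tested comparisons.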

How the data were processed

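The deposited table gives FPKM values for each gene symbol in 7 libraries, all of which matched a sample title. Build mm10 and the tools Cuffnorm, Cufflinks (2.2.1), STAR (2.5.2b) and R (3.3.2) are listed per the submitters' processing notes; how the authors set them, strand included, is not stated there, so overlapping genes cannot be told apart. Positions come from RefSeq on the same assembly.

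From the deposited FPKM, log2(FPKM + 1) was modelled in R 4.3.3 by limma 3.58.1 with a mean-variance trend over every gene reaching 1 FPKM in 1 or more of the fitted libraries, with Benjamini-Hochberg adjustment and calls made below an adjusted p of 0.05. Differences are on that scale, which understates changes of low genes. One fit held 3 classes (4 residual degrees of freedom), one 6 label groups (1), and one the 5 iNSC libraries (3). The p-values measure spread between lines or clones, each sequenced once from pooled RNA, with each gene's variance moderated toward a trend over all genes. Comparisons of 1 library with 1 give counts past 2-fold without a test. The fits were tested on simulated data with changed genes planted. With noise drawn from each gene's own residual SD, the model with 1 residual degree of freedom (pBKSM against mcBKSM) recovered none of them; the others recovered most of the large changes. The noise was then redrawn from limma's moderated variances, a milder assumption chosen after that failure, and all 4 comparisons recovered most large changes. The fits themselves were not altered, and the first outcome stands as a limit on that comparison. Depth was estimated from 2247 genes with 1 annotated transcript over 1500 bases, where 48.7% to 60.9% of the low values were whole fragment numbers to within 0.05; it covers counting error only.

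Alternatives were a pseudocount of 0.1, no filter, a filter of 5 FPKM, quantile normalization, limma without a trend, fits of fewer libraries and leaving out each library. Members with at least 5 FPKM in a library are given in every library and the others by their range. From each partner list, the called genes that differed most were named, at most 4. Dag1 and all cell type markers given beside a result were picked after their values were seen, as were the upstream stretches and motifs, which replaced planned protein sequences. The alternatives were run for all members reaching 1 FPKM, a wider set than first intended (5 FPKM), also decided after seeing values. The members, lists and rules were chosen with earlier results of these data known. The result for 1 member is not reported here, though it is included in the counts.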

Additional observations from a re-analysis of the deposited data

Results flagged for a closer look

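Among the 5 iNSC libraries, 19 members with at least 1 FPKM in a line were examined for 1 library standing apart from the other 4 by more than 0.71 of the whole range on the log2(FPKM + 1) scale. The DTA library did so for Itga7, at 7.97 FPKM with a gap of 0.715 of the range, and for Lamc1, at 73.7 FPKM with a gap of 0.832. Chance flags about 1 in 20 such groups, and the share of all genes flagged by this rule was not counted.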

How the results depend on the processing

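Against MEF the number of members called stayed between 4 and 8 under every alternative, and between 5 and 8 with 1 iNSC library left out (6 in the main analysis; 8 without DTA). Against cNSC the 1 call became 0 with a pseudocount of 0.1, a filter of 5 FPKM, no trend or only the 2 classes compared, 3 without a filter, and 0 to 3 with 1 library left out (3 without DTA, 0 without each other line). For pBKSM against mcBKSM, 3 became 1 with a pseudocount of 0.1, 1 without a filter, 0 without a trend and 9 with only the 3 BKSM libraries. For DTA against the other lines, 0 became 4 without a filter, and 0 to 11 with 1 library left out (11 without pBKSM). In pBKSM against mcBKSM, the 1 member called without a filter was not among the 3 of the main analysis. Without a filter, members under 1 FPKM throughout could also enter. Between the clones, 0 members past 2-fold became 1 with a pseudocount of 0.1. Directions turned only for small differences: after quantile normalization for Itga10 against MEF (-0.0539), Lamc1 in pBKSM (-0.0205) and Itga2b in DTA (-0.114), and with 1 library left out for Itgb8 against MEF (-0.0237 without DTA, range -0.0237 to 1.002) and Itga2b in DTA (-0.0316 without pBKSM, -0.0514 without clone 1, range -0.0514 to 0.0619). The causes were not tested. Over the whole table, alternatives called 1147 (without pOKSM) to 3193 (without DTA) genes against MEF (main analysis 2128), 50 (without pOKSM) to 883 (without DTA) against cNSC (152), 0 (no trend) to 2536 (only the BKSM libraries) for pBKSM against mcBKSM (759), and 0 (without clone 1) to 3951 (without pBKSM) for DTA (44). Leaving out a clone left pBKSM against mcBKSM with no residual degrees of freedom, so no count was made. No paired analysis was possible because only mcBKSM had more than 1 library. Values under about 0.05 FPKM are at the depth limit.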
